A study of Mus musculus with 14 samples.

Results

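Islets of diabetic mice with permanently active IKK2 were compared here with islets of mice that carried the driver allele alone. The members were the 5 arrays titled IKK2-CApdx-1 (here IKK2-CA) and the 4 titled Pdx-1+/-, 9 of the 14 arrays of the series, read over 19938 genes. Per the labels, Pdx-1+/- mice had the Pdx-1-tTA allele, which leaves them haploinsufficient for Pdx-1. IKK2-CA mice had that allele as well and, through it, constitutively active IKK2 in their β-cells, and they were diabetic. All mice were 11 weeks old, on a mixed C57BL/6 and NMRI background (1:1), and untreated. The 5 control arrays took part in the estimate of the spread and are given beside some of the genes named.

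Because both groups had the driver allele, the comparison asks what active IKK2 changed beyond the loss of Pdx-1 dosage. Changes from active IKK2 and changes from the diabetes cannot be told apart in it. The driver is set by Pdx-1, which is made in pancreatic progenitors as well as in adult β-cells, so the comparison does not say when the kinase acted. Nothing in the labels ties an array to a mouse of its own, and the p-values then measure the spread between these samples, which may be technical. RNA came from whole islets, in which fewer cells of a type and less RNA per cell cannot be told apart, and the same holds for more cells and more RNA.

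IKK2, the product of Ikbkb, is a kinase that marks the inhibitory IκB proteins for destruction. This frees NF-κB, a family of Rel transcription factors, to enter the nucleus and switch on genes for chemokines, adhesion molecules, antigen presentation and its own inhibitors. Islets hold few leukocytes in health. Among those are macrophages and dendritic cells, which take up antigen, travel to lymph nodes and present it to T cells, and both chemokines and adhesion molecules guide such traffic.

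In this comparison 15 genes rose and 0 fell at an adjusted p under 0.05 (limma, Benjamini-Hochberg over 19938 genes), which is 0.0752% of the genes tested. All 15 rose at least 2.28-fold. Ccl17 had the widest rise and the smallest adjusted p of them. Ccl17 and Ccl22, also among the 15, are chemokines that attract T cells through the receptor CCR4. The 15 held 8 genes of the lists of conventional and mature dendritic cell genes, Ccl17 and Ccl22 among them. Those lists held 25 and 23 of the 19938 genes and were chosen with earlier results of these data known. The smallest adjusted p among the genes that lay lower was 0.126. At an unadjusted p under 0.05, 862 genes lay higher (4.32%) and 537 lower (2.69%). The arrays of the 2 groups did not overlap for 343 genes that lay higher (1.72%) and 142 that lay lower (0.712%), and 45% of all genes had a positive log2 difference.

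The number that passed depended on single arrays. It was 2, 2, 2 and 3 without Pdx-1+/- array 1, 2, 3 or 4, and 21, 16, 4, 29 and 66 without IKK2-CA array 1, 2, 3, 4 or 5. With 1 array left out in turn, the adjusted p reached at most 0.00792 for Ccl17 and 0.0443 for Klrb1b, and at most 0.0882 to 0.207 for the other 13. The 9 arrays fitted without the controls gave 1 gene, Ccl17. The main fit takes 1 spread for a gene over all 3 groups, yet for each of the 15 genes the SD was largest in IKK2-CA. For Itgax it was 0.87 in IKK2-CA, 0.17 in Pdx-1+/- and 0.26 in control islets.

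Array 5 of IKK2-CA and array 4 of Pdx-1+/- stood apart for genes of other tissues. A list's level on an array is given here as the mean log2 deviation of its genes from their mean over all 14 arrays. The adipocyte list read 2.04 on IKK2-CA array 5 and −0.43 to −0.11 on the other 4. The intestinal list read 2.36 on Pdx-1+/- array 4 and −0.26 to −0.22 on the other 3, with a control array at 1.03. Within IKK2-CA, array 5 was highest for 27 of the 41 lists. Leaving out both arrays moved the median difference of 31 lists by over 1.5 times or across 0, and values without the 2 arrays are those of that fit.

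**Figure D1:**
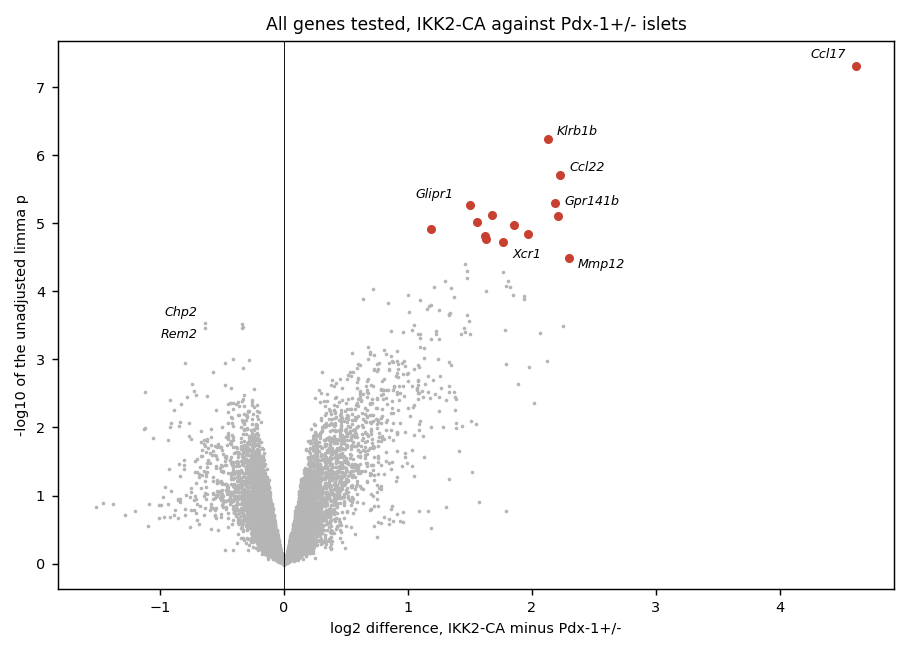
The x axis is the log2 difference of each gene, IKK2-CA minus Pdx-1+/-, and the y axis the −log10 of the unadjusted limma p. Each point is 1 of 19938 genes, and the red points are the 15 past the adjusted threshold, all to the right of 0, with Ccl17 farthest out at log2 4.62.

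Ccl17 and Ccl22 lie close together on mouse chromosome 8, with Cx3cl1 between them as the only other protein-coding gene in RefSeq. Their promoters are shown because the 2 neighbours rose most among the chemokines. Those of Itgax and Mmp12, genes of dendritic cells and macrophages, are shown because they held the AP-1 motif. Each sequence is the 250 bases before the RefSeq start (GRCm38.p6), 5′ to 3′ along the gene, all on the plus strand. The windows are chr8:94810203-94810452 for Ccl17, chr8:94745434-94745683 for Ccl22, chr7:128129300-128129549 for Itgax and chr9:7347124-7347373 for Mmp12, the second of 2 starts of that gene. Capitals mark the AP-1 motif TGANTCA.
Ccl17: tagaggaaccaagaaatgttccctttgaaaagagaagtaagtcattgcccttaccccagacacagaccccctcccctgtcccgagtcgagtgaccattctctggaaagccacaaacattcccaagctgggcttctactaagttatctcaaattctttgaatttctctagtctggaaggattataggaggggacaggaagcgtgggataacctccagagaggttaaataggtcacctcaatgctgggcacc
Ccl22: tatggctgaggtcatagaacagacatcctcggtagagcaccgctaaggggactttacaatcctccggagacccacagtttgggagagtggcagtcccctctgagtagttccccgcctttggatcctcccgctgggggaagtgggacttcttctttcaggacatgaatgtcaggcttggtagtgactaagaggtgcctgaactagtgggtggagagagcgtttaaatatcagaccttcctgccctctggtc
Itgax: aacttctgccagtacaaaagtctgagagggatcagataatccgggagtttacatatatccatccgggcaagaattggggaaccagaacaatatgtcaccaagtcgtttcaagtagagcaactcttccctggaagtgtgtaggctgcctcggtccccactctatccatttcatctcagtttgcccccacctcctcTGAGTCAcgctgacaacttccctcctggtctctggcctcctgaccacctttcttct
Mmp12: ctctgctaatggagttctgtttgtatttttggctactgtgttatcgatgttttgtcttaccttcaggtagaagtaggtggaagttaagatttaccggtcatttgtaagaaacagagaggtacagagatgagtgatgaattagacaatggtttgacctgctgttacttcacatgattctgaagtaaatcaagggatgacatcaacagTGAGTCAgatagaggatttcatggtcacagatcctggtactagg

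RefSeq held a promoter window for 10 of the 15 genes, 12 windows in all, and each motif was sought on both strands. The AP-1 motif was in 2 of them, against 6.75% of 32851 windows of the same length. The κB consensus, the site that Rel dimers bind, matched 0 of the 12 windows, against 3.9% of all, and its narrower form, GGGA, any base, then TTTCC, also matched 0, against 0.356%. GAGGAAGT, a form of the PU.1 motif, was in 1 window, at the first start of Mmp12, against 2.44%. GAAA, any pair of bases, then GAAA, a motif of interferon-regulated genes, was in 1 window, that of Gpr141b, against 2.98%. The TATA box letters TATAAA, sought on the gene's strand in the last 50 bases, were in 1 window, that of Fscn1, against 2.63%. These are matches of letters in short windows and say nothing of which factor bound where.

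Ccl17 (transcript cluster 10574226) showed the widest difference of any gene tested. It read 11.16, 10.76, 9.14, 11.06 and 11.98 on IKK2-CA arrays 1 to 5 and 6.21, 6.21, 6.28 and 6.08 on the Pdx-1+/- arrays, in log2 signal. The control arrays read 5.08 to 7.01, so even array 3, the lowest of the IKK2-CA arrays, lay above every array of the other groups. The rise was 24.6-fold (log2 4.62, SE 0.45, adjusted p = 0.000963). Ccl22 (10574213), the other CCR4 ligand, read 7.75, 6.75, 6.80, 7.25 and 8.39 against 5.13, 5.20, 5.07 and 5.24. It rose 4.68-fold (log2 2.23, SE 0.29, adjusted p = 0.0128), and its groups did not overlap either. Array 3 was lowest for Ccl17 and next to lowest for Ccl22, while it was next to highest for most of the other genes that rose.

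Cx3cl1, the adhesive chemokine encoded between them and named here for its position, read 7.15, 7.12, 7.93, 7.16 and 7.90 against 6.98, 7.05, 6.88 and 6.87. Its log2 difference was 0.51 (SE 0.18, adjusted p = 0.544), so the gene between the pair did not pass. Ccr4, the receptor of both ligands, read 4.38 to 4.97 in IKK2-CA and 4.34 to 4.63 in Pdx-1+/- islets (log2 0.15, SE 0.15, adjusted p = 0.935). These values overlapped and lay near the low end of the arrays.

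Ccl5 (10389207), a T-cell attractant that binds other receptors, read 8.78, 8.91, 9.91, 9.09 and 10.34 against 7.82, 7.81, 7.59 and 7.88. It rose 3.10-fold (log2 1.63, SE 0.26, adjusted p = 0.0262). Ccl19, a ligand of CCR7 made in lymphoid stroma and by dendritic cells, read 8.54, 8.27, 9.32, 8.82 and 9.78 against 8.01, 7.72, 7.32 and 7.31 (log2 1.35, SE 0.25, adjusted p = 0.0707). Its arrays did not overlap, but it did not pass. Of the 30 other chemokines measured, 20 were positive, with a median log2 of 0.08 against −0.015 over all genes, and Ccl5 was the 1 that passed. Cxcl9, an interferon-induced attractant of T cells, read 7.14, 7.61, 9.05, 7.0 and 9.85 against 5.74 to 6.36 (log2 2.12, SE 0.52, adjusted p = 0.235). Arrays 3 and 5 held its 2 highest values, and the other IKK2-CA arrays also lay above every Pdx-1+/- array. Cxcl16 was at log2 1.15 (SE 0.23, adjusted p = 0.0949), and without the 2 arrays it was at 0.8 and passed (limma adjusted p = 0.0338).

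Among the 21 chemokine receptors 16 were positive (median log2 0.30, or 0.11 without the 2 arrays), and Ccr7 and Xcr1 rose. Ccr7 (10390763), which steers dendritic cells and T cells to lymph nodes, read 7.96, 7.88, 8.61, 8.14 and 9.31 against 7.22, 6.52, 6.80 and 6.49. It rose 3.08-fold (log2 1.62, SE 0.26, adjusted p = 0.0257). Xcr1 (10597996), a receptor of cross-presenting dendritic cells, read 7.0, 7.11, 7.49, 6.82 and 8.62 against 5.63, 5.34, 5.81 and 5.76. It rose 3.42-fold (log2 1.77, SE 0.28, adjusted p = 0.0266). For both, array 5 was highest and no IKK2-CA array reached down to the Pdx-1+/- range. Ccr2, a receptor of monocytes, read 6.39, 7.31, 6.85, 6.41 and 8.88 against 5.13 to 5.51 (log2 1.78, SE 0.38, adjusted p = 0.13). Without the 2 arrays Ccr2 was at log2 1.26 and passed (limma adjusted p = 0.0234).

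**Figure D2:**
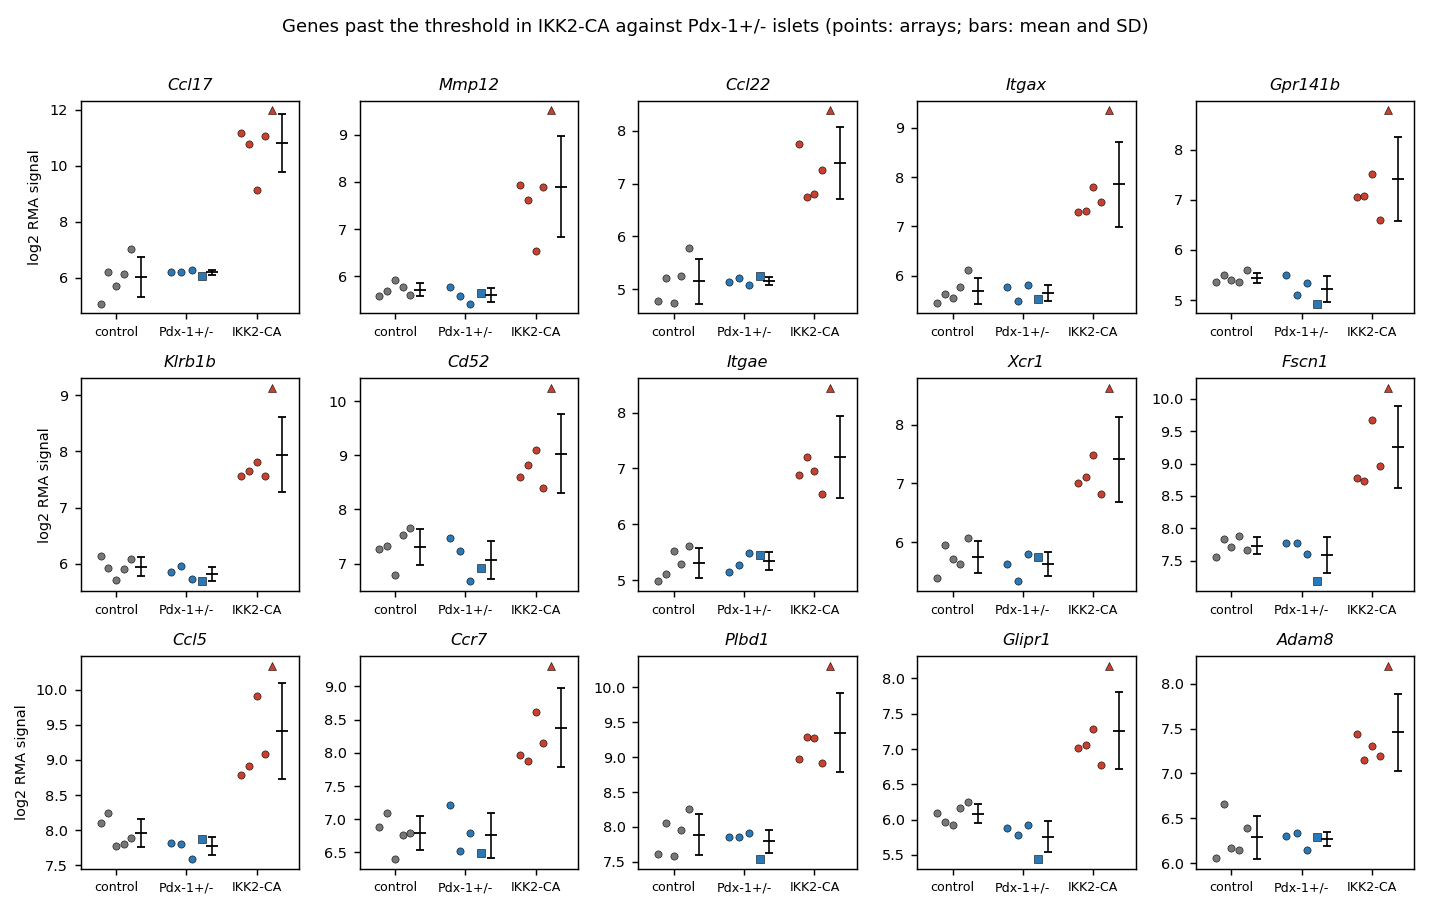
Each panel is 1 of the 15 genes that rose, with log2 RMA signal on the y axis and the 3 groups along the x axis. Points are arrays (triangle: IKK2-CA array 5; square: Pdx-1+/- array 4) and bars the mean and SD. In all 15 panels every IKK2-CA array lies above every Pdx-1+/- and control array, and the triangle is highest.

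Genes of conventional dendritic cells, the class that primes T cells, supplied 4 of the 15 genes. Of 25 measured, 22 were positive, with a median log2 of 0.73 (0.42 without the 2 arrays), and Itgax, Itgae, Xcr1 and Plbd1 rose. The arrays did not overlap for 13 of the 25, all higher, while 1.72% of all genes lay higher without overlap. That share belongs beside the counts of the lists below as well. Itgax (10557895), the integrin chain CD11c, read 7.29, 7.32, 7.80, 7.50 and 9.36 against 5.77, 5.48, 5.80 and 5.52. It rose 4.64-fold (log2 2.21, SE 0.33, adjusted p = 0.0224). Itgae (10378286), the integrin chain CD103 of tissue dendritic cells and of resident T cells, read 6.89, 7.20, 6.95, 6.54 and 8.44 against 5.14, 5.28, 5.49 and 5.46. It rose 3.64-fold (log2 1.86, SE 0.28, adjusted p = 0.0237). Both were highest on array 5 by more than 1 log2 unit, and arrays 1 to 4 lay close together.

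Plbd1 (10548817), a lysosomal phospholipase-like protein, read 8.97, 9.29, 9.27, 8.91 and 10.31 against 7.86, 7.85, 7.92 and 7.54. It rose 2.95-fold (log2 1.56, SE 0.24, adjusted p = 0.0237). Clec9a, a receptor for dead cells on the same subset as Xcr1, read 5.46, 5.90, 6.19, 5.67 and 7.20 against 4.61, 4.38, 4.85 and 4.57 (log2 1.48, SE 0.26, adjusted p = 0.0583). Flt3, the receptor for the growth factor that dendritic cells need, read 6.48, 6.27, 6.67, 5.91 and 7.51 against 5.32, 4.96, 5.39 and 5.39 (log2 1.30, SE 0.24, adjusted p = 0.0662). The arrays of these 2 genes did not overlap, although neither passed. Irf8, Batf3 and Zbtb46 encode transcription factors of these cells and were picked for that role after values had been seen. Irf8 was at log2 1.23 (SE 0.27, adjusted p = 0.13) without overlap. Batf3 (log2 0.12, adjusted p = 0.903) and Zbtb46 (log2 0.00, adjusted p = 0.998) overlapped between the groups, so not every factor of these cells lay higher.

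Genes of mature dendritic cells, which have left the tissue state and carry co-stimulatory proteins, had a median log2 of 0.48 over 23 measured (0.29 without the 2 arrays). Of these 21 were positive, and Fscn1, Ccr7, Ccl17 and Ccl22 rose. For 11 the arrays did not overlap, all higher, against 1.72% of all genes. Fscn1 (10527158), an actin-bundling protein of their long processes, read 8.78, 8.73, 9.67, 8.96 and 10.17 against 7.78, 7.77, 7.60 and 7.18. It rose 3.21-fold (log2 1.68, SE 0.25, adjusted p = 0.0224). Il12b, a subunit of the cytokines IL-12 and IL-23, read 5.77, 6.19, 6.67, 5.48 and 6.53 against 4.65, 4.91, 4.80 and 5.46 (log2 1.17, SE 0.23, adjusted p = 0.0882). Its lowest IKK2-CA and highest Pdx-1+/- value nearly met. Without the 2 arrays Il12b was at log2 1.24 and passed (limma adjusted p = 0.0472). Cd80, which gives T cells their second signal, was at log2 0.86 (SE 0.21, adjusted p = 0.221), and Cd274, the checkpoint ligand PD-L1, at 0.85 (SE 0.22, adjusted p = 0.246), or 0.54 and 0.50 without the 2 arrays. Among 26 co-stimulation and checkpoint genes 21 were positive (median log2 0.37, or 0.17 without the 2 arrays) and 0 passed. Havcr2, the checkpoint receptor Tim-3, read 6.84, 7.18, 7.99, 7.21 and 9.24 against 5.69 to 6.06 (log2 1.85, SE 0.35, adjusted p = 0.0777).

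The 2 dendritic lists stood above the Pdx-1+/- arrays on every IKK2-CA array. The conventional list read 0.28, 0.38, 0.38, 0.23 and 1.24 on IKK2-CA arrays 1 to 5 and −0.46 to −0.10 on the Pdx-1+/- arrays. The mature list read 0.39, 0.37, 0.44, 0.33 and 1.20 against −0.51 to −0.18. Array 4, the lowest of its group for 20 of the 41 lists, was thus raised for both. This was not theirs alone, as the array means of 10 of the 41 lists lay apart, all higher in IKK2-CA. Those of chemokine receptors, interferon-stimulated genes, both MHC classes and the cell cycle were among them.

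Markers of macrophages and monocytes, the other phagocytes of islets, did not shift alike. Of 29 measured, 19 were positive with a median log2 of 0.09, and Mmp12 was the 1 that rose. At an unadjusted p under 0.05, 8 were higher and 3 lower, against 4.32% and 2.69% of all genes. The arrays did not overlap for 6 that lay higher and 2 that lay lower, against 1.72% and 0.712% of all genes. Mmp12 (10583056), the macrophage elastase, read 7.94, 7.62, 6.53, 7.90 and 9.52 against 5.77, 5.57, 5.42 and 5.65. It rose 4.92-fold (log2 2.30, SE 0.39, adjusted p = 0.0424), with array 3 lowest as for Ccl17. Clec7a, a receptor for fungal glucans that dendritic cells also carry, read 7.91, 7.86, 8.19, 7.50 and 9.55 against 6.34 to 6.86 (log2 1.63, SE 0.31, adjusted p = 0.0737). Ctss, another gene of the list, was at log2 1.08 (SE 0.29, limma adjusted p = 0.312) without overlap, and at 0.66 without the 2 arrays. The macrophage genes Adgre1, an adhesion receptor, and Csf1r, the receptor of their growth factor, were picked for their role after values had been seen. Their estimates were negative, unlike those of most of the list. Adgre1 read 8.51, 8.67, 8.25, 8.09 and 8.83 against 8.79, 8.87, 8.66 and 8.31 (log2 −0.19, SE 0.17, adjusted p = 0.929). Csf1r read 9.66, 9.88, 9.63, 9.27 and 10.23 against 10.14, 10.05, 10.06 and 9.55 (log2 −0.21, SE 0.18, adjusted p = 0.923). Both overlapped between the groups over all arrays. Without the 2 arrays Adgre1 was at log2 −0.39 (adjusted p = 0.52) and Csf1r at −0.47 (adjusted p = 0.455), and for Csf1r the remaining IKK2-CA arrays all lay below the remaining Pdx-1+/- ones. The macrophage list read 0.02, 0.26, 0.11, −0.26 and 0.98 on IKK2-CA arrays 1 to 5 and −0.25 to 0.07 on the Pdx-1+/- arrays. Its median was −0.15 with Pdx-1+/- array 4 and IKK2-CA array 5 left out.

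Klrb1b (10548314), a C-type lectin on natural killer cells with related copies beside it that probes may not separate, read 7.57, 7.65, 7.81, 7.57 and 9.13. The Pdx-1+/- arrays read 5.86, 5.97, 5.73 and 5.70. It rose 4.38-fold (log2 2.13, SE 0.25, adjusted p = 0.00567), and arrays 1 to 4 lay between 7.57 and 7.81. Of the 25 natural killer and cytotoxic genes 20 were positive (median log2 0.37, or 0.24 without the 2 arrays), and Klrb1b and Ccl5 rose. Klrk1, the activating receptor NKG2D, was at log2 0.82 (SE 0.24, adjusted p = 0.344), and Klrb1f at 0.78 (SE 0.26, adjusted p = 0.455), or 0.50 and 0.44 without the 2 arrays.

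Of 26 T-cell genes measured, 25 were positive with a median log2 of 0.42, 0 passed and the arrays did not overlap for 3. The list read 0.04, 0.12, 0.65, −0.20 and 0.91 on IKK2-CA arrays 1 to 5 and −0.28 to −0.06 on the Pdx-1+/- arrays, so array 4 lay inside the Pdx-1+/- range. Il7r, the receptor of a T-cell survival factor, read 5.68, 6.03, 6.74, 5.72 and 8.13 against 4.85 to 5.29 (log2 1.37, SE 0.39, adjusted p = 0.325). Il2ra, the high-affinity chain of the interleukin-2 receptor, read 5.72, 5.38, 5.69, 5.75 and 6.96 against 4.41 to 5.09 (log2 1.10, SE 0.25, adjusted p = 0.146). Without the 2 arrays Il2ra was at log2 0.71 and passed (adjusted p = 0.0273). Cd3e, a chain of the T-cell receptor complex, read 6.65, 6.63, 7.62, 6.09 and 7.88 against 5.72 to 6.39 (log2 0.86, SE 0.30, adjusted p = 0.493). Arrays 3 and 5 held its 2 highest values, and array 4 lay inside the Pdx-1+/- range. Foxp3, the regulatory T-cell factor, picked for its role after values had been seen, was at log2 0.27 (SE 0.12, adjusted p = 0.662).

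B-cell genes (16 of 17 positive, median log2 0.15) and neutrophil and mast cell genes (4 of 15 positive, median log2 −0.10) had 0 genes past the threshold and 0 without overlap, and their medians were 0.02 and −0.04 without the 2 arrays. Plasmacytoid dendritic cell genes had a median log2 of 0.15 over 10 measured, with 6 positive and 0 past the threshold. Genes that all leukocytes share were positive in 29 of 29 (median log2 0.61, or 0.30 without the 2 arrays), and Cd52 rose. Cd52 (10517165), a small surface glycoprotein of lymphocytes and dendritic cells, read 8.60, 8.82, 9.11, 8.39 and 10.25 against 7.47, 7.23, 6.67 and 6.91. It rose 3.91-fold (log2 1.97, SE 0.31, adjusted p = 0.0257). The list's array means were 0.05, 0.33, 0.64, −0.12 and 1.44 against −0.40 to −0.06, so array 4 overlapped the Pdx-1+/- arrays here. The 10 lists whose array means lay apart, the dendritic ones among them, have no such overlap by definition.

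**Figure D3:**
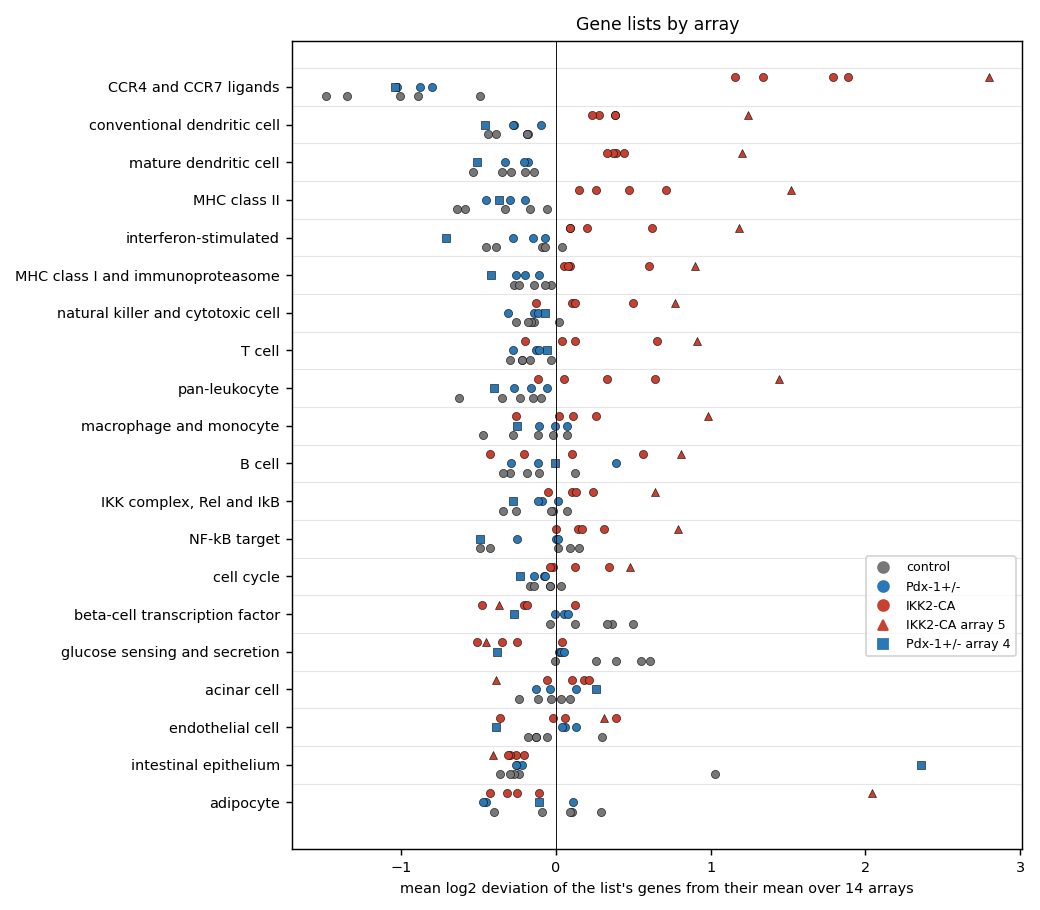
Each row is a gene list and each point an array, placed on the x axis by the mean log2 deviation of the list's genes from their mean over 14 arrays. Groups are coloured, with IKK2-CA array 5 as a triangle and Pdx-1+/- array 4 as a square. The red points of the dendritic, interferon-stimulated and MHC lists all lie above the blue ones. Those of the macrophage and B-cell lists overlap them, and the square lies at 2.36 for intestinal genes.

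The other 3 genes that rose belong to varied functions. Gpr141b (10407982), an orphan receptor with a close copy that probes may not separate, read 7.06, 7.08, 7.52, 6.60 and 8.79 against 5.50, 5.11, 5.35 and 4.93. It rose 4.56-fold (log2 2.19, SE 0.31, adjusted p = 0.0214). Glipr1 (10372410), a protein of the CAP family, read 7.01, 7.05, 7.29, 6.77 and 8.18 against 5.88, 5.78, 5.92 and 5.44. It rose 2.84-fold (log2 1.50, SE 0.22, adjusted p = 0.0214). Adam8 (10568873), a membrane protease of leukocytes, read 7.44, 7.15, 7.30, 7.19 and 8.20 against 6.30, 6.33, 6.15 and 6.29. It rose 2.28-fold (log2 1.19, SE 0.18, adjusted p = 0.0242), the smallest rise of the 15. Adam8 and Mmp12 were the 2 of 31 matrix proteases and inhibitors that rose (22 positive, median log2 0.11, or 0 without the 2 arrays). Mmp9, a gelatinase, went the other way without passing, at log2 −0.65 (SE 0.24, adjusted p = 0.564).

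The 15 genes shared features across arrays. All 15 were highest on IKK2-CA array 5, and 6 were lowest on array 4, 4 on array 2, 3 on array 1 and 2 on array 3. All 15 lay above every control array on every IKK2-CA array. Between Pdx-1+/- and control islets they differed by log2 −0.33 to 0.18, with the lowest adjusted p at 0.999 (limma). Few genes passed in that comparison at all, 0 higher and 19 lower of 19938 (0.0953%), so this is not particular to the 15. With Pdx-1+/- array 4 and IKK2-CA array 5 left out, all 15 passed again, with log2 differences 0.778 to 0.929 times as large. The 2 arrays were chosen from these same data. Without them the SE was smaller for every one of the 15 but Ccl17 (Itgax 0.16 against 0.33), so passing again is no separate support.

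With both of these arrays left out, 51 genes rose (0.256%) and 1 fell (0.00502%), 37 of them genes that did not pass over all arrays. The 1 that fell was Ebpl, named after its value was seen. It was at log2 −0.39 (adjusted p = 0.0487) on the remaining 4 and 3 arrays and at −0.25 (adjusted p = 0.592) on all of them. The part of the other tissues in the values over all arrays was not tested.

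The 12 genes next in order behind the 15 had adjusted p from 0.0501 to 0.0737 (limma), and the arrays did not overlap for any of them. Their choice by p favours this, and over all genes 1.72% lay higher without overlap. Kmo, an enzyme of tryptophan breakdown, read 6.35, 6.56, 6.17, 5.98 and 7.66 against 5.31, 5.18, 4.97 and 4.88 (log2 1.46, SE 0.25, adjusted p = 0.0501). Gbp8, an interferon-induced GTPase with similar family members, was at log2 1.77 (adjusted p = 0.0583). Pilra, an inhibitory receptor of myeloid cells, was at log2 1.81, Slamf7, a receptor of natural killer and activated immune cells, at 1.82, and Myo1g, a myosin of blood cells, at 1.21. Cldn1, a tight junction protein of epithelia, read 7.95, 7.43, 7.60, 7.72 and 8.97 against 7.05, 6.20, 5.97 and 5.37 (log2 1.79, SE 0.33, adjusted p = 0.0707). It was the 1 of 15 duct genes whose arrays did not overlap, and the duct list had a median log2 of −0.07.

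Further leukocyte genes passed with the 2 arrays left out. The 52 that then passed included the 15 that passed over all arrays. Of the 52, 12 were in the dendritic lists and 24 in any list, and the 15 held 8 and 13 of these. Kmo, Clec9a, Flt3, Pilra, Slamf7, Myo1g, Clec7a, Havcr2 and H2-DMa passed in that fit. So did Csf2rb, the shared β-chain of the receptors for GM-CSF and interleukin-3, at log2 1.10 (adjusted p = 0.00358) against 1.49 (adjusted p = 0.121) with all arrays. Csf2rb2, its near-identical neighbour, was at 1.09 (adjusted p = 0.0166). Sh2d1b1, an adaptor of SLAM receptors, was at 1.12 (adjusted p = 0.000302), Dcstamp, a fusion protein of myeloid cells, at 0.76 (adjusted p = 0.0071), and Mpeg1, a pore-former of phagocytes, at 0.87 (adjusted p = 0.0146). Scimp, an adaptor of antigen-presenting cells, was at 1.04 (adjusted p = 0.00375) and Rasgrp1, a Ras activator of lymphocytes, at 1.18 (adjusted p = 0.0131). Dock10 (0.95), Gbp4 (1.06), Coro2a (0.53) and AA467197 (0.94) also passed there. The log2 differences of all these genes in that fit lay below those with all arrays, as did their SE.

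No gene of the pathway of IKK2 itself passed the threshold. Ikbkb read 7.42, 7.66, 7.61, 7.66 and 8.03 against 7.62, 7.37, 7.46 and 7.18 (log2 0.27, SE 0.11, adjusted p = 0.662), and was at log2 0.10 without the 2 arrays. The sources used here do not give whether its probes bind the transgene, so its level is no check of the genotype. Of 26 genes of the IKK complex, the Rel factors and the IκB proteins, 22 were positive (median log2 0.25, or 0.16 without the 2 arrays), 6 did not overlap and 0 passed. Tnip1, which restrains NF-κB with the enzyme A20, read 7.06, 6.97, 7.34, 6.89 and 7.62 against 6.62, 6.49, 6.28 and 6.43 (log2 0.72, SE 0.14, adjusted p = 0.0714). Nfkbie, an IκB protein, was at log2 0.92 (SE 0.23, adjusted p = 0.246), Tnip3 at 0.96 (SE 0.25, adjusted p = 0.264) and Nfkb2, the precursor of p52, at 0.70 (SE 0.19, adjusted p = 0.312). These were the members with the smallest p, and Tnip3 and Nfkb2 were at 0.60 and 0.46 without the 2 arrays.

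The central members, picked for their role after values had been seen, overlapped between the groups. Rela, the main activating subunit, was at log2 0.20 (adjusted p = 0.873) and Relb, the partner of p52, at 0.36 (adjusted p = 0.467). Nfkbia, or IκBα, an early target of NF-κB, read 11.24, 10.87, 10.63, 10.76 and 11.30 against 11.32, 11.07, 10.78 and 9.89 (log2 0.19, SE 0.30, adjusted p = 0.975). Tnfaip3, which encodes A20, was at log2 0.37 (SE 0.28, adjusted p = 0.891). For Nfkbia and Tnfaip3 the lowest value was that of Pdx-1+/- array 4, and without it and IKK2-CA array 5 the differences were −0.18 and 0.05.

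Of 33 NF-κB target genes 29 were positive (median log2 0.31, or 0.14 without the 2 arrays), 7 did not overlap and 0 passed. That list leaves out the chemokine genes, which are counted above and of which Ccl17, Ccl22 and Ccl5 rose. Vcam1, an adhesion molecule of activated vessels and stroma, read 8.58, 9.17, 9.62, 8.70 and 10.70 against 8.04, 8.19, 7.94 and 7.92 (log2 1.33, SE 0.33, adjusted p = 0.235). Icam1, the ligand of the integrin LFA-1, read 9.38, 9.20, 9.79, 8.97 and 10.42 against 8.65, 8.66, 8.28 and 7.79 (log2 1.20, SE 0.32, adjusted p = 0.292). The groups came closest at 8.58 and 8.19 for Vcam1 and at 8.97 and 8.66 for Icam1. The array means of the list were 0.14, 0.17, 0.31, 0.00 and 0.79 against −0.49 to 0.01, so array 4 met the Pdx-1+/- arrays. Interleukins and the TNF family had a median log2 of 0.05 over 31 measured, with 23 positive and 0 past the threshold.

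Adhesion molecules and addressins were positive in 21 of 23 (median log2 0.60), and Itgax and Itgae were the 2 that rose. Madcam1, the addressin through which lymphocytes enter gut and inflamed islets, read 6.45, 6.50, 8.81, 6.30 and 8.56 against 5.40, 5.35, 5.04 and 5.23 (log2 2.07, SE 0.45, adjusted p = 0.13). Arrays 3 and 5 stood well above arrays 1, 2 and 4, which still lay above every Pdx-1+/- array. H2-M2, a non-classical MHC class I gene, had the same split, at 5.97, 5.74, 8.07, 6.20 and 8.61 against 4.59 to 4.76 (log2 2.25, SE 0.48, adjusted p = 0.13). The 5 arrays of the 1 genotype thus fell into a higher and a lower set for these 2 genes.

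Antigen presentation lay higher on every array without a gene past the threshold. The 12 MHC class II genes were all positive (median log2 0.98), 7 without overlap. H2-DMa, which loads peptides, read 8.89, 8.90, 9.26, 8.59 and 10.31 against 7.87, 7.77, 7.43 and 7.76 (log2 1.48, SE 0.27, adjusted p = 0.0662). H2-Aa, a chain of the presenting molecule, read 11.33, 11.55, 11.68, 11.18 and 12.42 against 10.65, 10.66, 10.22 and 10.61 (log2 1.10, SE 0.25, adjusted p = 0.185). The array means of the list were 0.26, 0.47, 0.71, 0.15 and 1.52 against −0.45 to −0.20. All 19 genes of MHC class I and the immunoproteasome were positive (median log2 0.53, or 0.30 without the 2 arrays). Tap1, which carries peptides into the endoplasmic reticulum, was at log2 1.00 (SE 0.26, adjusted p = 0.259).

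Interferon-stimulated genes were positive in 36 of 36 (median log2 0.71), 17 did not overlap and 0 passed. Irf7, which amplifies interferon signals, read 6.99, 7.06, 8.52, 7.25 and 9.38 against 6.85, 6.48, 6.27 and 6.24 (log2 1.38, SE 0.40, adjusted p = 0.34). Ifit1 read 7.40, 6.90, 7.81, 7.55 and 8.51 against 6.68, 6.82, 6.47 and 5.82 (log2 1.19, SE 0.27, adjusted p = 0.148). Arrays 3 and 5 were highest for both genes, and without the 2 arrays Ifit1 was at log2 0.76. The array means were 0.09, 0.09, 0.62, 0.20 and 1.18 against −0.71 to −0.07, and the median without the 2 arrays was 0.37. Irf9, Dhx58 and Gbp4 were at log2 0.85, 1.08 and 1.48.

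**Figure D4:**
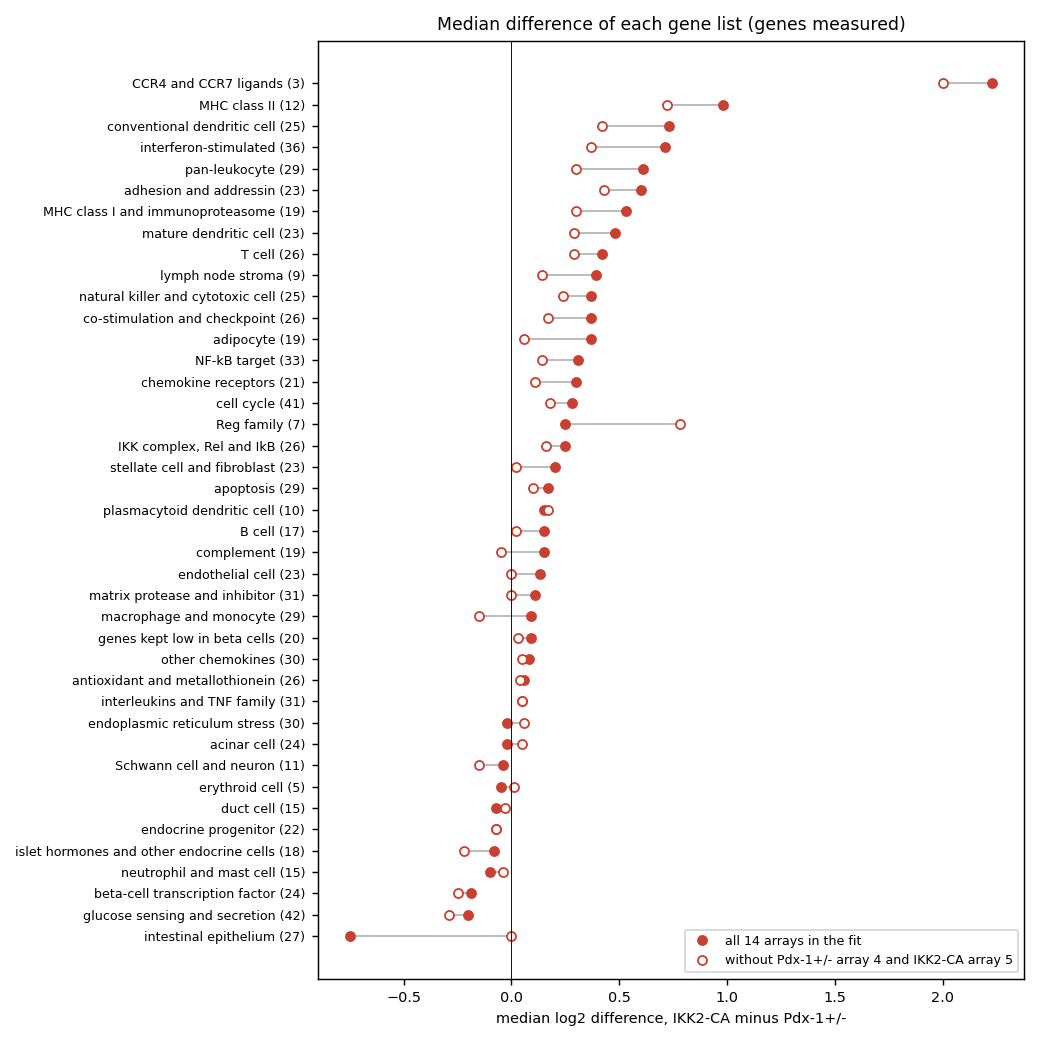
Each row is 1 of 41 gene lists with the number of genes measured, and the x axis is the median log2 difference, IKK2-CA minus Pdx-1+/-. Filled points use all 14 arrays and open points leave out the fourth Pdx-1+/- and the fifth IKK2-CA array. The list of CCR4 and CCR7 ligands stays highest (2.23 and 2.00). Of its 5 genes 3 were measured, Ccl17, Ccl22 and Ccl19, so its median is the value of Ccl22. The dendritic lists stay above 0, and the intestinal list moves from −0.75 to 0.

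No gene of the 2 β-cell lists passed, and most lay lower. Of 24 β-cell transcription factors 3 were positive, with a median log2 of −0.19. Of 42 genes of glucose sensing and secretion 4 were positive, with a median log2 of −0.20. Without the 2 arrays the medians were −0.25 and −0.29. Between Pdx-1+/- and control islets the medians were −0.28 and −0.33. Array 4 of IKK2-CA read 0.12 and 0.04 as list means, inside or above the Pdx-1+/- values of −0.27 to 0.08 and −0.38 to 0.05. The other 4 IKK2-CA arrays read −0.48 to −0.19 and −0.51 to −0.25.

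Pdx1 read 6.68, 6.86, 6.39, 7.44 and 5.97 in IKK2-CA and 7.32, 7.10, 7.27 and 6.85 in Pdx-1+/- islets. The log2 difference was −0.47 (SE 0.25, adjusted p = 0.79), and array 4 lay above the whole Pdx-1+/- group. The sources used here do not give whether its probes cover the altered allele. Slc2a2, the glucose transporter of mouse β-cells, read 8.88, 8.76, 8.78, 9.73 and 7.89 against 9.37, 9.08, 9.52 and 9.23 (log2 −0.49, SE 0.32, adjusted p = 0.872), and was at log2 −0.28 without the 2 arrays. Mafa, which mature β-cells use to switch on insulin, differed by log2 −0.22 (SE 0.25, adjusted p = 0.948), with array 5 alone at 6.09, and was at −0.06 without the 2 arrays. Gad1, which makes the transmitter GABA, was at log2 −0.28 (SE 0.20, adjusted p = 0.886). Between Pdx-1+/- and control islets Gad1 fell by 2.03 on the log2 scale (adjusted p = 0.000791, limma), as 1 of 19 genes that fell there (0.0953%). Pdx1, Slc2a2 and Mafa also lay lower in Pdx-1+/- than in control islets, at log2 −1.09, −1.43 and −1.0. They did not pass there (limma adjusted p = 0.21, 0.188 and 0.296).

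**Figure D5:**
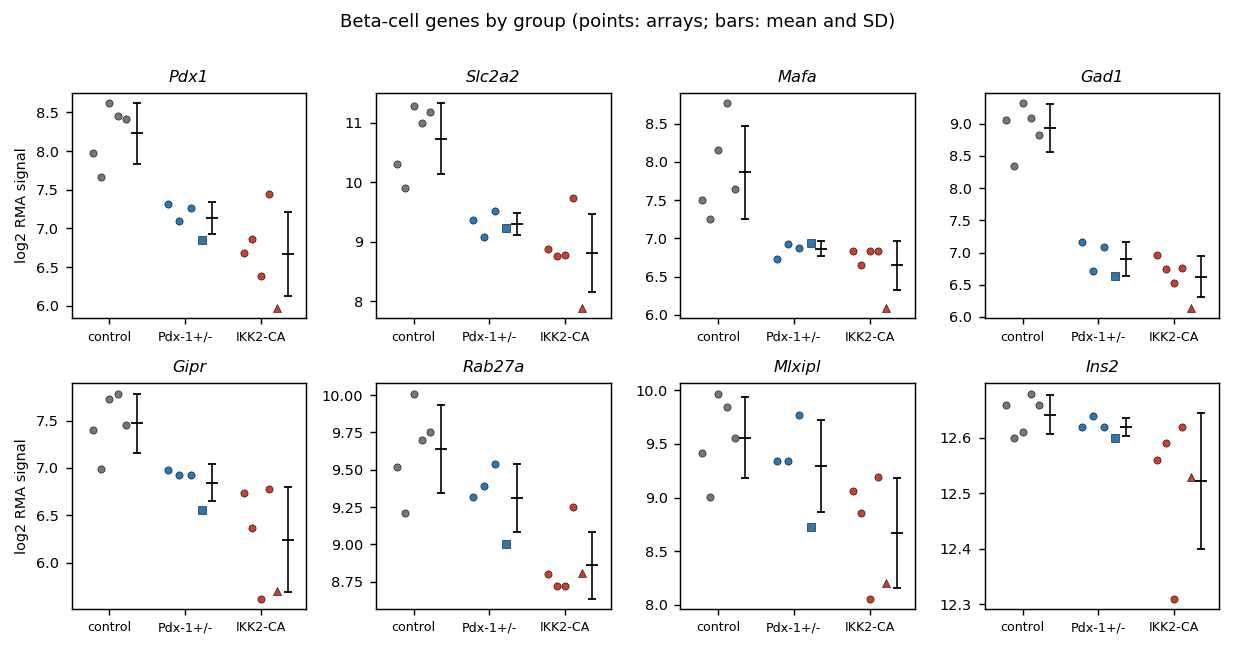
Each panel is a β-cell gene, with log2 RMA signal on the y axis and the 3 groups along the x axis. Points are arrays (triangle: IKK2-CA array 5; square: Pdx-1+/- array 4) and bars the mean and SD. The control points of Gad1 lie near 9 and both other groups near 7, while Rab27a is lower on 4 IKK2-CA arrays than on any Pdx-1+/- array.

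The β-cell genes with the smallest p were spread over secretion and metabolism. Rab3a, a GTPase of secretory vesicles, read 7.14, 7.32, 7.10, 7.36 and 6.96 against 7.50, 7.46, 7.52 and 7.48 (log2 −0.32, SE 0.12, adjusted p = 0.547). It was the 1 gene of the 2 lists whose arrays did not overlap. Rab27a, a granule docking GTPase, read 8.80, 8.72, 8.72, 9.25 and 8.81 against 9.32, 9.39, 9.54 and 9.0 (log2 −0.45, SE 0.16, adjusted p = 0.515). Gipr, the receptor of an incretin hormone, read 6.74, 6.37, 5.62, 6.78 and 5.70 against 6.98, 6.92, 6.92 and 6.56 (log2 −0.60, SE 0.24, adjusted p = 0.62). Array 4 was the IKK2-CA array nearest to Pdx-1+/- for both Rab27a and Gipr. Mlxipl, the glucose-sensing factor ChREBP, was at log2 −0.62 (SE 0.26, adjusted p = 0.662) and Myt1, an endocrine factor, at −0.44 (SE 0.18, adjusted p = 0.657). Sv2b, a vesicle protein, was at log2 −0.37 (SE 0.16, adjusted p = 0.662).

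The hormone genes overlapped between the groups and lay near the top of the arrays, where the scale compresses them. Ins2 read 12.56, 12.59, 12.31, 12.62 and 12.53 against 12.62, 12.64, 12.62 and 12.60 (log2 −0.10, SE 0.07, adjusted p = 0.888). Gcg of α-cells was at log2 0.01 (SE 0.09, adjusted p = 0.997), Sst of δ-cells at −0.22 (SE 0.16, adjusted p = 0.891) and Ppy, of PP cells, at −0.13 (SE 0.21, adjusted p = 0.976). Without the 2 arrays Ppy was at −0.43 (adjusted p = 0.508). The sign of Gcg turned in several other fits. Both groups thus held high hormone transcripts, as islet tissue does.

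Among the genes that lay lower, 0 passed and 9 of the 12 with the smallest p did not overlap. Over all genes 0.712% lay lower without overlap, and a choice by p in the same comparison favours such genes. Chp2, a calcium-binding partner of sodium-proton exchangers, read 6.78, 6.92, 6.57, 6.55 and 6.68 against 7.30, 7.18, 7.33 and 7.53 (log2 −0.64, SE 0.13, adjusted p = 0.126). Rem2, a GTPase that restrains calcium channels, read 5.59, 5.55, 5.60, 5.80 and 5.30 against 6.39, 6.30, 6.25 and 5.91 (log2 −0.64, SE 0.14, adjusted p = 0.13). Gucy2c, a guanylate cyclase receptor of the gut, was at log2 −0.80 (SE 0.20, adjusted p = 0.235), and its control arrays read 6.75 to 7.51, like the IKK2-CA ones. Cry2, a repressor of the circadian clock, was at −0.57 (SE 0.15, adjusted p = 0.256), Tmtc2 at −0.48 and Zfyve21 at −0.41. Apof, an apolipoprotein, was at −0.74 (SE 0.20, adjusted p = 0.312), and Ankrd37, Ucma, Coro6, Gm9901 and Mir301b at −0.34 to −0.28. The control arrays read 5.06 to 5.51 for Apof and 6.04 to 6.26 for Coro6, like the IKK2-CA ones. Ankrd37, Gm9901 and Mir301b instead had control means near those of Pdx-1+/- islets, and for Ucma the control mean lay between. Large differences were mostly upward, with 131 genes higher by 1 log2 unit or more (0.657%) and 13 lower (0.0652%).

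Cell-cycle genes were positive in 37 of 41 (median log2 0.28, or 0.18 without the 2 arrays), 4 did not overlap and 0 passed. Mki67, a protein of proliferating cells, read 6.40, 6.93, 7.46, 6.41 and 7.65 against 5.90, 5.93, 6.27 and 5.90 (log2 0.97, SE 0.24, adjusted p = 0.235). Top2a, which untangles replicated DNA, was at log2 0.89 (SE 0.24, adjusted p = 0.312), and Ccnb2, a mitotic cyclin, at 0.79 (SE 0.21, adjusted p = 0.295). Arrays 3 and 5 were highest for the list (0.34 and 0.48), as they were for the leukocyte list. Which cells divided was not measured, and the part of leukocytes in these values was not tested.

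No gene of the stress and death lists passed. Apoptosis genes were positive in 26 of 29 with a median log2 of 0.17 (0.10 without the 2 arrays), and 6 of the 29 were higher at an unadjusted p under 0.05, against 4.32% of all genes. Bak1, a pore-former of mitochondria, was at log2 0.50 (SE 0.16, adjusted p = 0.434) with array 5 at 7.69 and arrays 1 to 4 at 6.94 to 6.99. Endoplasmic reticulum stress genes had a median log2 of −0.02 over 30, and antioxidant genes 0.06 over 26. Trib3, a kinase-like protein of the stress response, was at log2 0.37 (SE 0.14, adjusted p = 0.562), and Prdx1, a peroxidase, at 0.21 (SE 0.09, adjusted p = 0.662). Endocrine progenitor genes had a median log2 of −0.07 over 22, with 9 positive. Mycl, a Myc family factor also of dendritic cells, was the 1 of them without overlap (log2 0.55, SE 0.13, adjusted p = 0.213), and Aldh1a3, a marker of dedifferentiated β-cells, was at −0.43 (SE 0.20, adjusted p = 0.701).

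Genes of other cells in an islet preparation gave the background for these values. Acinar genes had a median log2 of −0.02 over 24, endothelial genes 0.13 over 23 and stellate cell and fibroblast genes 0.20 over 23, with 0 past the threshold in each. Without the 2 arrays the endothelial and stellate medians were 0.00 and 0.02. The adipocyte median went from 0.37 to 0.06. Lymph node stroma genes, which a stray node in the preparation would bring, had a median log2 of 0.39 over 9 and of 0.14 without the 2 arrays, and their array means overlapped between the groups. The part of such tissue in the leukocyte values was not tested.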

How the data were processed

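Total RNA from islets was isolated with RNeasy, labelled by the WT Sense Target method and, per the labels, put on Mouse Gene 1.0 ST arrays of Affymetrix. The authors summarised the probes by the robust multichip average method (RMA) with Affymetrix Expression Console, per the series' design text and the submitters' processing notes. The sources used here give neither version nor settings. No label states the log base, and the deposited values were read as log2 signal because of their range and equal medians. RMA draws all arrays to a shared distribution, so a change in total RNA per cell cannot be seen, and low signals are compressed.

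Of 35556 transcript clusters, 21789 had 1 gene symbol in the array's gene table. Those with several (1621) or not listed there (12146) were left out of the gene tests. For 999 genes with several clusters the one with the highest mean was kept, which gave 19938 genes with no filter on signal. Array medians lay between 6.45 and 6.55; the number of arrays limits the precision.

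Genes were fitted with limma 3.58.1 (lmFit, eBayes) in R 4.3.3 as 3 group means over 14 arrays (11 residual and 3.46 prior degrees of freedom). The threshold was an adjusted p of 0.05 (Benjamini-Hochberg, all genes), SE is limma's moderated SE, a fold is 2 raised to the log2 difference, and Pdx-1+/- against control came from the same fit. The script was tested on simulated data. Python 3.11.15 was used for lists, motifs and figures. The 41 lists held 930 genes, 847 of them measured, and are described by counts and medians; many genes are in more than 1 list.

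The members, lists and rules were chosen with earlier results of these data known. The genes named were those past the threshold (up to 30), the 12 next higher and 12 lower by p, up to 4 of each list by p, 10 fixed genes, and the 20 of smallest p that passed when Pdx-1+/- array 4 and IKK2-CA array 5 were left out; genes named otherwise are marked. Same-number arrays did not deviate together (correlations −0.08, 0.02, −0.17 and −0.36), so the numbers were not used as pairs. Alternatives were median centring or quantile normalization of arrays, eBayes with a trend and robust estimation, the 9 arrays alone, leaving out the lowest 30% of genes, other handling of several clusters, weights for arrays, a block by replicate number, and leaving out arrays.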

Additional observations from a re-analysis of the deposited data

Results flagged for a closer look

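Of 378 sets of values (a gene or a list within 1 group), 37 held an array far from the others of its group by Dixon's test at the 95% level; chance gives about 1 in 20. The genes were named by their values, some because they passed once IKK2-CA array 5 and Pdx-1+/- array 4 were left out, and lists share genes, so the number is no test of these arrays. Array 5 of IKK2-CA was that array in 20 of them and Pdx-1+/- array 4 in 10.

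On IKK2-CA array 5 the high genes of leukocytes were Itgax at 9.36, Klrb1b at 9.13, Pilra at 8.92, Scimp at 8.62, Plbd1 at 10.31, Adam8 at 8.20, Ctss at 10.88, Il1rn at 7.91, Il2ra at 6.96 and Sh2d1b1 at 6.68. Coro2a at 8.09, AA467197 at 6.95, Bak1 at 7.69 and Ebpl at 7.12 were high there as well, and Mafa was low at 6.09. The list means on that array were 1.24 for conventional and 1.20 for mature dendritic cells, 1.19 for adhesion, 0.49 for apoptosis and 2.04 for adipocyte genes.

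On Pdx-1+/- array 4 the values were low for Cd80 (5.77), Ctss (8.20), Csf1r (9.55), Il1rn (5.34), Plbd1 (7.54), Gipr (6.56) and Tnfrsf4 (5.55), and high for AA467197 (5.13). The list of glucose sensing and secretion read −0.38 there and the intestinal list 2.36.

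Single arrays elsewhere were Pdx-1+/- array 3 for H2-Aa (10.22, low), Tlr9 (6.85, low) and Mki67 (6.27, high), array 2 for Flt3 (4.96, low) and array 1 for the duct list (0.23, high). Within IKK2-CA, array 3 was high for Cxcl11 (6.02) and array 4 for Rab27a (9.25).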

How the results depend on the processing

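The count of 15 genes became 18 with array median centring, 16 with quantile normalization, 14 with trend and robust estimation, 20 without the lowest 30% of genes and 15 with either other handling of clusters. It became 1 with only the 9 arrays of the 2 groups, which leaves fewer degrees of freedom, 52 with array weights (50 higher, 2 lower), 9 with the replicate number as a block, and 52 with Pdx-1+/- array 4 and IKK2-CA array 5 left out. Leaving out 1 array at a time gave 2 to 66. The cause of these differences was not tested. The block lost Adam8, Ccl5, Ccr7, Cd52, Fscn1 and Mmp12. The labels do not say whether equal numbers mark arrays that belong together, so what this loss means was not tested. Ccl17 passed in 19 of 19 alternatives, Klrb1b in 18, Ccl22 in 15 and Mmp12 in 9, with highest adjusted p of 0.0194, 0.162, 0.162 and 0.404 (limma).

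Gcg, Zbtb46 and Nfkbia, which did not pass, turned their sign in some fits. Gcg was at 0 with median centring, −0.09 with array weights, −0.01 with the block, −0.11 without the 2 arrays and −0.08 to 0.05 with 1 array left out. Zbtb46 was at −0.01 with centring, 0 with quantile normalization and −0.03 to 0.03 with 1 array left out. Nfkbia was at −0.03 with array weights, −0.18 without the 2 arrays and −0.1 to 0.38 with 1 array left out. The medians of the 41 lists moved by less than 1 SD between arrays in 778 cases and by more in 1, that of interleukins and the TNF family without the lowest 30% of genes (0.17). That measure passes over large moves. Leaving out Pdx-1+/- array 4 and IKK2-CA array 5 moved 31 of the 41 by over 1.5 times or across 0, 25 of them closer to 0. The intestinal median went from −0.75 to 0, that of chemokine receptors from 0.30 to 0.11, of pan-leukocyte genes from 0.61 to 0.30 and of NF-κB targets from 0.31 to 0.14. Low signals limit what can be seen for genes near the floor of the arrays, as for Ccr4.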

Other observations

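Transcript clusters left out of the gene tests were fitted too. Over all 35556 clusters 18 passed the threshold (limma, Benjamini-Hochberg). Of the 1621 with several gene symbols 1 was higher and 0 were lower, and of the 12146 that the gene table does not list, 2 were higher and 1 was lower. The Reg family, secreted proteins of inflamed pancreas, varied widely within both groups. Its array means were 1.74, 0.40, 1.67, −0.96 and −1.38 on IKK2-CA arrays 1 to 5 and 1.09, −1.36, −0.27 and 0.22 on the Pdx-1+/- arrays, and 0 of its 7 genes passed.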
